A study of Mus musculus with 8 samples.

Results

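Cytosolic heat shock chaperones were followed through an arsenite stress and its recovery in NIH3T3 cells, an immortal mouse embryonic fibroblast line. The 10 listed genes were Hspa1b, Hspa8, Hspa4, Hsph1, Dnajb1, Bag3, Hsp90aa1, Hsp90ab1, Hspb1 and Hspd1. They were taken by name from the gene tables of the study and not by a rule on their values. Earlier results of these data were known when these genes and the further chaperone lists below were chosen, so the choice was not blind. Of these, 9 were listed in all 3 tables, among 9875 genes listed in all 3 and 10690 listed in at least 1. Hspb1, a small heat shock protein gene, was listed in 0 of the 3 tables, so its level was not analysed and only its promoter is shown. Hspd1 encodes the mitochondrial chaperonin HSP60 and so is not cytosolic, and it is described as such below.

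Proliferating cells were left non-treated (NT), were given 250 µM sodium arsenite for 1 h (AS), or were given the same arsenite treatment and then returned to normal medium, where they recovered for 4 h in RC4 and for 8 h in RC8. All groups shared the cell line, the medium with calf serum and the TRIzol extraction of total RNA, and each group was 1 QuantSeq FWD library. QuantSeq FWD reads the 3′ part of an mRNA close to its poly(A) site (PAS), so a read count follows the number of transcripts and is not divided by length. Levels are therefore given as RPM, the reads of a gene per 1000000 reads on genes, and compared within a gene only. The cell line stands for 1 immortal lineage, and 4 QuantSeq REV libraries of the same conditions were not analysed here.

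Libraries held 22441452 to 22996421 reads on genes. The lowest count of a listed gene was 50 reads in every library, so the ranks and shares of all genes below leave out genes with fewer reads. With 1 library per condition there was no spread between replicates and no test, and a gene was counted as higher or lower when its RPM differed at least 2-fold. The 95% intervals below cover the counting of reads alone, and since no molecular identifiers were used, several reads may come from 1 molecule. Every comparison with NT used the same NT library, so the comparisons are not independent of each other. The log2 change of the median gene was −0.04, −0.30 and 0.01 for AS, RC4 and RC8, so a gene at 0 in RC4 lay 0.30 above the median gene. All 12 fibroblast markers were measured, with a summed level of 15809 RPM in NT and of 16286, 12522 and 9530 RPM after arsenite and at 4 h and 8 h of recovery. Most of this sum was S100a4, at 10272 RPM in NT. The median log2 change of the 12 markers was −0.08, −0.47 and −0.82 in AS, RC4 and RC8. Of these 12 markers, 3 were at least 2-fold lower in RC4, beside 13.4% of all genes, and 4 in RC8, beside 3.53%. The part of this marker shift in the chaperone results was not tested. Of 15 markers of epithelial, endothelial and leukocyte cells, 1 was listed (Csf1r, 5.62 RPM in NT).

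The heat shock response is the rapid production of chaperones when proteins misfold, as they do when arsenite attacks cysteine thiols. The transcription factor HSF1 is held inactive in unstressed cells by chaperones, and once released it binds heat shock elements, which are alternating inverted repeats of the letters GAA. HSP70 proteins bind exposed hydrophobic stretches in an ATP-driven cycle that J-domain proteins start and nucleotide exchange factors end, while HSP90 acts later on nearly folded clients such as kinases. HSF1 activity itself was not measured by these libraries.

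Promoter sequences are shown first because the listed genes are grouped as HSF1 targets, a grouping that the read counts do not test. RefSeq promoters (GRCm38.p6, 250 bases before to 50 after a gene start) were matched for 7 of the 10 genes, all but Hspa8, Hsp90aa1 and Hsp90ab1. The 3-unit element, spelled GAA, then any 2 letters, TTC, any 2 letters and GAA, and searched on both strands, was in 2 of the 7 genes (Hsph1 and Hspd1), beside 0.662% of all 27025 genes and 0.603% of all 32851 promoters. The shorter 2-unit elements GAANNTTC and TTCNNGAA, which lie within the 3-unit element and were added after the data were seen, were in 5 of the 7 genes, beside 16.97% of all genes and 15.1% of all promoters. Matches are shown on the gene's strand with the matching letters in capitals, the first a run of 18 letters in which elements overlap. A match is a run of letters and not evidence of binding, and its absence says only that these letters were not in this window.
Hspd1, chr1:55088053-55088082, minus strand, 3-unit: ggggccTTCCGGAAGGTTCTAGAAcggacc
Hsph1, chr5:149636279-149636308, minus strand, 3-unit: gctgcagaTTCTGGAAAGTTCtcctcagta
Hspa1b, chr17:34959324-34959353, minus strand, 2-unit: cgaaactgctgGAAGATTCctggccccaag
Bag3, chr7:128523614-128523632, plus strand, 2-unit: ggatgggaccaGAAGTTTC
Hspb1, chr5:135887791-135887820, plus strand, 2-unit: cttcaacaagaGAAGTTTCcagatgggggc

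The first comparison, AS with NT, asked which chaperone mRNAs had already moved after 1 h of arsenite. Hspa1b, the stress-inducible HSP70, and Dnajb1, the HSP40 J-domain protein that stimulates it, rose 5.15-fold and 3.30-fold. They were 2 of the 9 genes, beside 0.622% of all 10452 genes at least 2-fold higher in that table, and 0 of 9 were at least 2-fold lower, beside 3.22% of all genes. In bulk RNA, more transcript per cell and more cells with the transcript cannot be told apart. The 7 others lay between 0.730-fold and 1.34-fold of NT. The median of the 9 log2 changes was 0.16, beside −0.04 over all genes.

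At 4 h of recovery, 7 of the 9 genes had risen at least 2-fold, beside 3.69% of all 10081 genes, and 0 of 9 had fallen that far, beside 13.4% of all genes. Their folds ran from 2.23 for Hspd1 to 55.9 for Hspa1b. Hsp90ab1 was just under the rule at 1.96-fold, and Hspa4 stood at 1.05-fold. The median log2 change was 1.79, beside −0.30 over all genes. The 9 genes together took 0.847% of the NT reads on genes, and 0.899%, 2.75% and 1.14% of the AS, RC4 and RC8 reads.

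At 8 h of recovery, 2 of the 9 remained at least 2-fold above NT, beside 2.97% of all 10441 genes, and 0 were at least 2-fold lower, beside 3.53%. These were Hsp90aa1 and Hspa1b. The median log2 change was 0.47, beside 0.01 over all genes. Between the successive libraries, 8 of 9 were at least 2-fold higher in RC4 than in AS, beside 5.89% of all genes, and 0 lower, beside 10.6%. From RC4 to RC8, 6 of 9 were at least 2-fold lower, beside 2.13% of all genes, and 0 were higher, beside 13.2%. All 9 genes had their highest level in RC4.

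**Figure D1:**
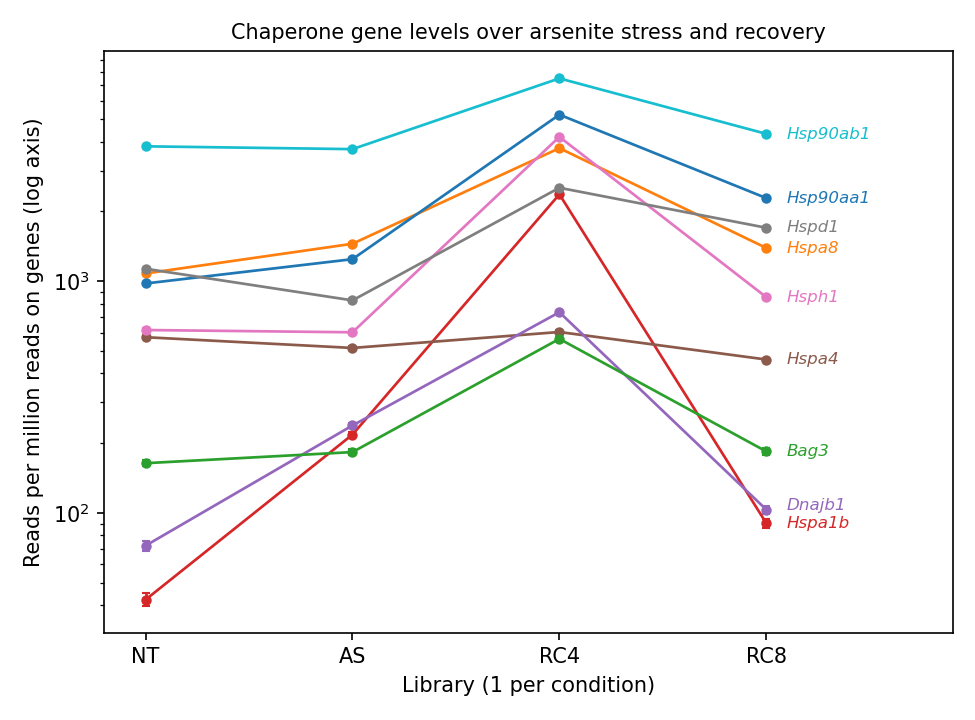
Level of each of the 9 measured chaperone genes in the 4 libraries, in RPM on a log axis, with 95% counting intervals as bars that are mostly smaller than the points. All 9 lines peak at RC4, with Hspa1b going from 42.3 RPM in NT to 2369 in RC4 and back to 90.4 in RC8, while Hspa4 stays between 459 and 604.

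Hspa1b, the inducible HSP70 that unstressed cells make little of, was at 42.3 RPM in NT, 218 RPM in AS, 2369 RPM in RC4 and 90.4 RPM in RC8. The order of levels was therefore NT, RC8, AS and RC4, and the counting intervals of the 4 libraries did not overlap. In reads, these were 955, 4890, 54238 and 2079. The fold over NT was 5.15 in AS (95% interval 4.81 to 5.52), which ranked 3rd of 10452 genes. In RC4 it was 55.9 (52.4 to 59.6), which ranked 1st of 10081 genes. From RC4 to RC8 the level fell 26.2-fold, the deepest decrease among 9972 genes compared. The 2.14-fold of RC8 over NT had an interval of 1.98 to 2.31 that reached below the 2-fold rule. Hspa1a, the neighbouring gene for nearly the same protein, was listed in 0 of the 3 tables, so its level was not analysed. Reads that fit both genes cannot be assigned between them.

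Hspa8 encodes HSC70, the constitutive HSP70 that also uncoats clathrin vesicles. It was at 1079 RPM in NT, 1450 RPM in AS, 3747 RPM in RC4 and 1391 RPM in RC8. It rose 3.46-fold in RC4 (3.41 to 3.51), whereas AS and RC8 stood at 1.34-fold and 1.29-fold, so that only the RC4 library was set apart by the 2-fold rule.

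Hspa4 and Hsph1 encode HSP110 proteins, distant HSP70 relatives that release ADP from HSP70. Their profiles differed. Hspa4 was at 573 RPM in NT, 515 RPM in AS, 604 RPM in RC4 and 459 RPM in RC8, and no library reached 2-fold from another. Hsph1 was at 616 RPM in NT, 602 RPM in AS, 4192 RPM in RC4 and 853 RPM in RC8. It rose 6.79-fold in RC4 (6.67 to 6.91), rank 16 of 10081 genes, after an AS level of 0.978-fold of NT (0.955 to 1.00) that counting error alone could not separate from NT. From RC4 to RC8 Hsph1 fell 4.92-fold.

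Of the cochaperones, Dnajb1 had passed the 2-fold rule by AS and Bag3 by RC4. Dnajb1 was at 72.3 RPM in NT, 239 RPM in AS, 735 RPM in RC4 and 103 RPM in RC8. Its 3.30-fold in AS (3.12 to 3.49) ranked 10th and its 10.1-fold in RC4 (9.63 to 10.7) ranked 7th, and it fell 7.10-fold from RC4 to RC8. Bag3, an HSP70 exchange factor that links HSP70 to selective autophagy, was at 164 RPM in NT, 183 RPM in AS, 564 RPM in RC4 and 184 RPM in RC8. By the 2-fold rule only RC4 stood apart for Bag3, at 3.43-fold of NT (3.31 to 3.56). Its AS and RC8 levels were slightly above NT, both at 1.12-fold (1.07 to 1.17), and their counting intervals overlapped each other.

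The HSP90 pair consists of Hsp90aa1, the stress-inducible isoform, and Hsp90ab1, the constitutive isoform. Hsp90aa1 was at 977 RPM in NT, 1244 RPM in AS, 5226 RPM in RC4 and 2282 RPM in RC8. It rose 5.34-fold in RC4 (5.26 to 5.41) and was still 2.33-fold above NT in RC8 (2.30 to 2.37), the highest fold of the 9 genes at that time. Hsp90ab1 was at 3816 RPM in NT, 3711 RPM in AS, 7492 RPM in RC4 and 4319 RPM in RC8. Its log2 change in AS, −0.04, changed sign when the libraries were scaled to the median gene, where it was 0.000553. Its RC4 value, 0.97 on the log2 scale, passed 2-fold under that scaling at 1.27.

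Hspd1, which forms the folding chamber of the mitochondrial matrix with its lid Hspe1, was at 1131 RPM in NT, 826 RPM in AS, 2528 RPM in RC4 and 1700 RPM in RC8. It had the lowest AS level relative to NT of the 9 genes, 0.730-fold (0.717 to 0.744). It then rose 2.23-fold over NT in RC4, and in RC8 its log2 change was 0.59. From RC4 to RC8 it declined 1.49-fold, less than the 2-fold rule.

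**Figure D2:**
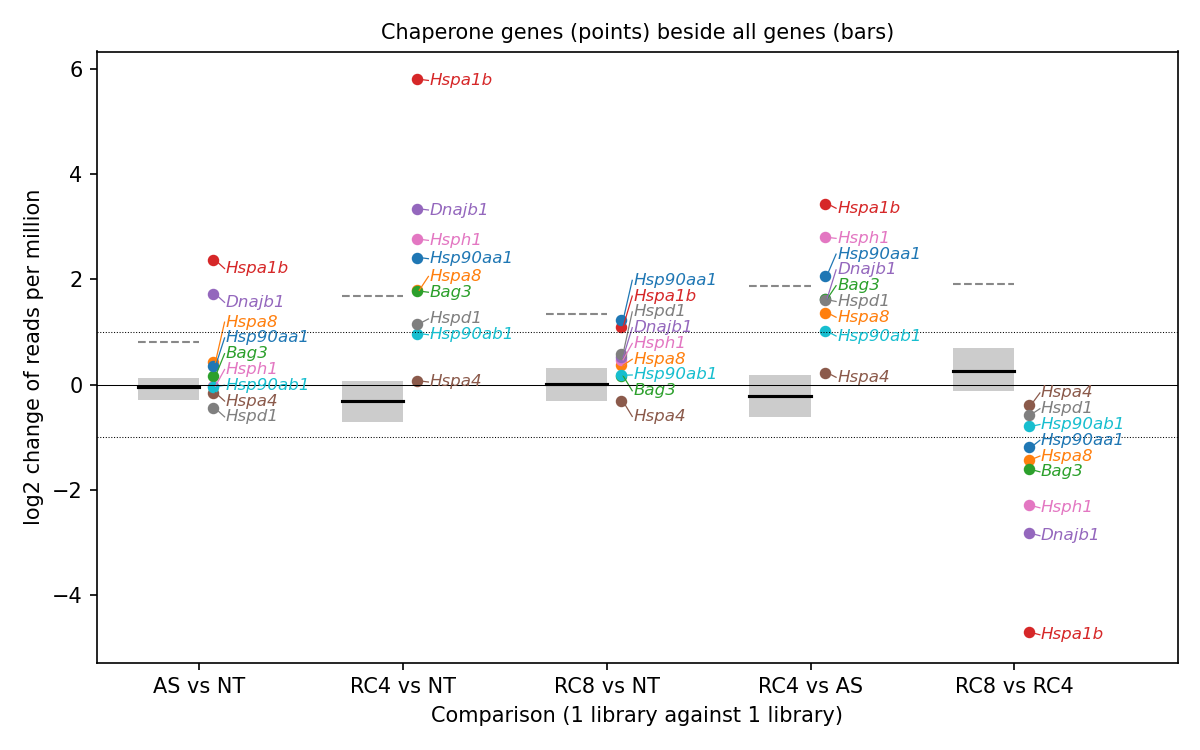
log2 change in RPM of the 9 chaperone genes (coloured points) in 5 comparisons of 1 library with 1 library. Grey bars span the interquartile range of all genes, the black line is their median, the dashed line is their 99th percentile and dotted lines mark 2-fold. Hspa1b and Dnajb1 stand apart in AS, 7 points lie above 2-fold in RC4, and from RC4 to RC8 the order of the points is led by Hspa1b at −4.71.

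Other chaperone genes were past the 2-fold rule in RC4 in part of the network. Of 51 further genes in 7 lists by role, 41 were measured. In AS 0 of the 41 were at least 2-fold higher, beside 0.622% of all genes, and 0 lower, beside 3.22%, which is near the background. In RC4 7 of 41 were at least 2-fold higher, beside 3.69% of all genes, and 2 lower, beside 13.4%. In RC8 1 of 41 was higher, beside 2.97% of all genes, and 1 lower, beside 3.53%, which is near the background. The counts by list below are read against the same shares. Their median log2 changes were 0.06, 0.01 and 0.16 in AS, RC4 and RC8.

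Among J-domain proteins, 2 of 7 rose in RC4. Dnaja1, a cytosolic HSP40, was at 331 RPM in NT, 346 RPM in AS, 1281 RPM in RC4 and 451 RPM in RC8, a log2 change of 1.95 in RC4. Dnajb4, a close relative of Dnajb1, reached 1.11. Among HSP90 cofactors, 2 of 9 rose in RC4, namely Ahsa2, a relative of the HSP90 ATPase activator Ahsa1, at 1.35 and Chordc1, an HSP90-binding protein, at 1.38.

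Small heat shock proteins are holdases that keep unfolded proteins soluble without ATP, and 2 of 3 measured rose in RC4. Cryab, αB-crystallin, was at 299 RPM in NT, 317 RPM in AS, 1591 RPM in RC4 and 1343 RPM in RC8. Its log2 change was 2.41 in RC4 and 2.17 in RC8, and it was the 1 companion gene past 2-fold above NT at both recovery times. Hspb8, the partner of Bag3, was at 287 RPM in NT, 315 RPM in AS, 815 RPM in RC4 and 330 RPM in RC8, a 2.84-fold increase in RC4. Among 6 mitochondrial chaperones only Hspe1, the HSP10 lid of HSP60, passed the rule, at 363 RPM in NT, 919 in RC4 and 688 in RC8 (log2 1.34 in RC4).

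The genes past the rule in the other direction were fewer than the background share of lower genes gives in RC4. Bag4, which silences death receptor signalling, fell by 1.11 on the log2 scale in RC4, from 27.4 to 12.7 RPM. Hsf1, the gene for the heat shock factor itself, also fell by 1.11, from 16.3 to 7.56 RPM. Scaled to the median gene, the log2 changes of Bag4 and Hsf1 in RC4 were −0.81 and −0.80, so that 0 of the 41 passed the rule downward. Hspa4l, an HSP110 relative, fell by 1.05 in RC8, from 206 to 99.5 RPM.

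**Figure D3:**
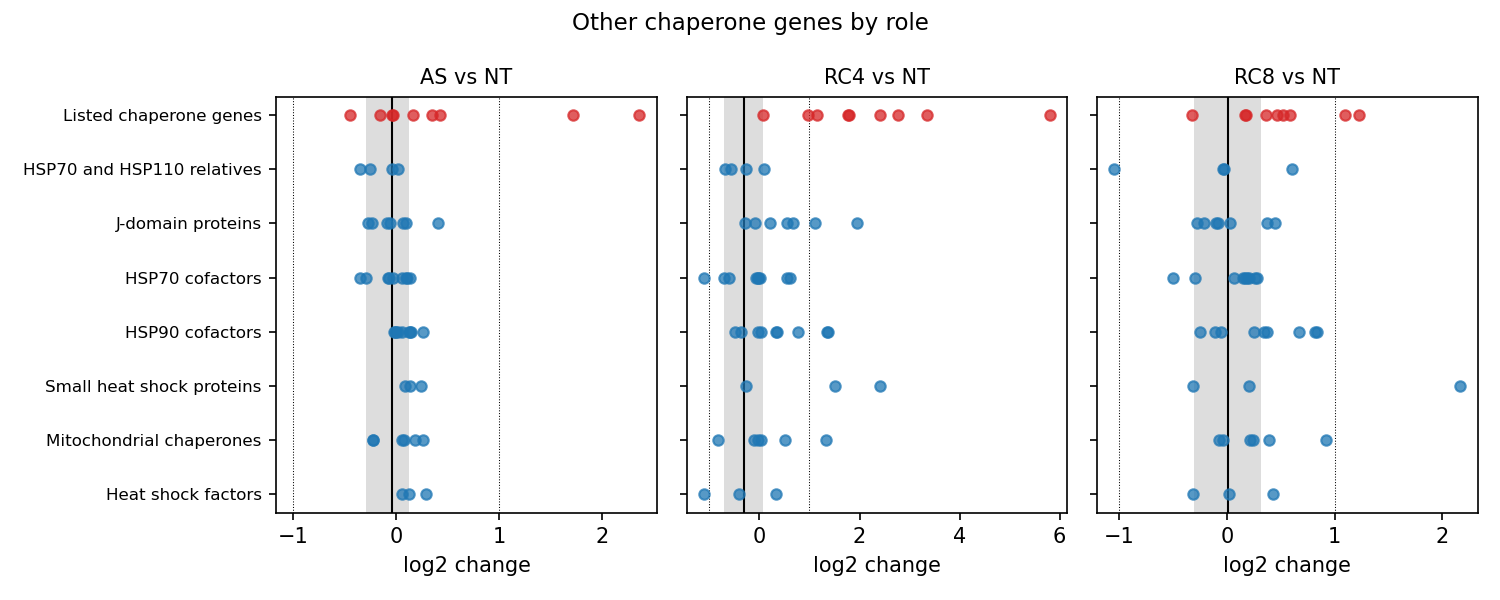
log2 change in RPM against NT for the 9 listed genes (red, top row) and 41 further chaperone genes by role (blue), 1 panel per comparison. The grey band spans the interquartile range of all genes, the black line is their median and dotted lines mark 2-fold. In RC4 the blue points past 2-fold on the right are 2 J-domain proteins, 2 HSP90 cofactors, 2 small heat shock proteins and 1 mitochondrial chaperone, and Cryab alone remains there in RC8.

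Poly(A) site use was then compared, since the libraries were made to study alternative polyadenylation, the choice among several PASs in a gene. A PAS nearer the stop codon gives a shorter 3′ UTR, and a PAS inside the gene, where it is used, gives a truncated message. The 9 genes had 22 PASs over the 3 tables. Hspa1b, Bag3 and Hspa8 had 1 listed PAS each, so their share was fixed at 100% and a change in PAS use could not be seen. Per the methods, the authors kept a minimal set of PASs that explained the reads, with a share threshold of 5%. Use of further PASs in these 3 genes was therefore not tested. Of the 6 genes with more than 1 PAS, 0 had a PAS share that moved by 10 percentage points or more in AS, beside 15.3% of all 5287 such genes. In RC4 there were 2 of 6 (Dnajb1 and Hspa4), beside 29.1% of all genes, and in RC8 3 of 6 (these and Hsp90ab1), beside 27% of all genes. For 6 genes these counts are near what the background share gives. Positions below are on mm9, and 95% Wilson intervals of the shares cover counting alone.

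Dnajb1 (chr8, plus strand) had PASs in its last exon 28, 150 and 1021 nt after the stop codon, at 86134746, 86134868 and 86135739. The distal PAS took 84.3% of the NT reads (82.5 to 86.0) and 89.1% of the AS reads (88.2 to 89.9). At recovery it took 65.9% (65.2 to 66.6) after 4 h and 68.8% (66.9 to 70.6) after 8 h. The share thus was higher in AS than in NT and lower at both recovery times, with no overlap between the NT interval and the others. Transcripts of all PASs rose in RC4, but unequally, since reads at the distal PAS rose 7.92-fold and those at 150 and 28 nt rose 25.9-fold and 18.5-fold. The reads at 150 and 28 nt started low, at 5.41 and 5.94 RPM in NT, and reached 140 and 110 RPM. The ratio of the distal to the other PASs had a log2 change of 0.61 for AS (0.38 to 0.84), of −1.47 for RC4 (−1.67 to −1.28) and of −1.28 for RC8 (−1.51 to −1.05).

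Hspa4 (chr11, minus strand), whose level moved least of the 9 genes in RC4, had PASs 1753 and 2 nt after the stop codon, at 53073361 and 53075112, and another inside the coding part of the last exon, at 53075237. The distal PAS took 69% of the NT reads, 65.4% of the AS reads, 51.1% of the RC4 reads and 59.3% of the RC8 reads. In RC4 reads at the distal PAS went from 396 to 308 RPM and reads at the other PASs from 178 to 296 RPM, so that the sum differed little from NT while the ratio changed by −1.09 (−1.16 to −1.02) on the log2 scale. The PAS at 2 nt took 20.9% in NT, 33.2% in RC4 and 31.5% in RC8.

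The HSP90 genes both had PASs called inside coding exons. None of these had AATAAA or ATTAAA in the 40 nt before it. None was counted below as lying at an A-rich stretch, but that count looked for dense A only after the PAS. The exon 9 PAS of Hsp90ab1 had A-rich letters across it, and the exon 5 PAS of Hsp90aa1 had them shortly before it. Whether the reads assigned there came from truncated messages, from priming inside the transcript or from wrong assignment was not tested. In Hsp90aa1 (chr12, minus strand) the PAS in exon 5 of 11, at 111932322, took 68.5% of the NT reads, 71.2% of the AS reads, 73.5% of the RC4 reads and 64.1% of the RC8 reads, and the PAS in the last exon, 513 nt after the stop codon, took the rest. In Hsp90ab1 (chr17, minus strand) PASs in exons 6, 6 and 9 of 11 together took 51.2% of the NT reads, 54.2% of the AS reads, 55.7% of the RC4 reads and 38.9% of the RC8 reads. One of the exon 6 PASs, at 45707311, went from 28.5% to 18% in the RC8 table, where a further PAS in the last exon 190 nt after the stop codon was listed at 3.06% in NT and 7.67% in RC8. For both genes the internal share was higher than NT in AS and RC4 and lower in RC8.

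The coding-exon PAS of Hsp90aa1 and the one of Hsp90ab1 at 45707311 lay at matching places of the paralogs. An ungapped alignment of 105 nt around them was 81.0% identical, with the PASs 15 nt apart. Both stretches are shown because a large share of the reads of these genes was assigned there, and the 30-base windows of the paralogs share 24 of 30 bases.
Hsp90aa1, chr12:111932322-111932351, minus strand, ending at the PAS: aagaactcaacaaaacaaagccgatttgga
Hsp90ab1, chr17:45707296-45707325, minus strand, PAS at base 15: aggagctgaacaagacaaagcctatctgga

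Hspd1 and Hsph1 had no PAS share that moved by 10 percentage points. The distal PAS of Hspd1 took 65.3% in NT against 60.6% in AS and 58.2% in RC8, and in the RC4 table, which listed another distal PAS, it went from 60% to 56.6%. The distal PAS of Hsph1 took 90.9% in NT, 90.3% in AS and 95.2% in RC8, and 90.1% in NT beside 89.8% in RC4 in the RC4 table. In RC8 the log2 ratio of its distal to its other PAS changed by 0.99 (0.86 to 1.12), with the other PAS at 56.2 RPM in NT and 41.2 RPM in RC8. For Hsph1 the 6.79-fold increase in RC4 was thus shared by both PASs, which rose 6.77-fold and 6.96-fold.

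**Figure D4:**
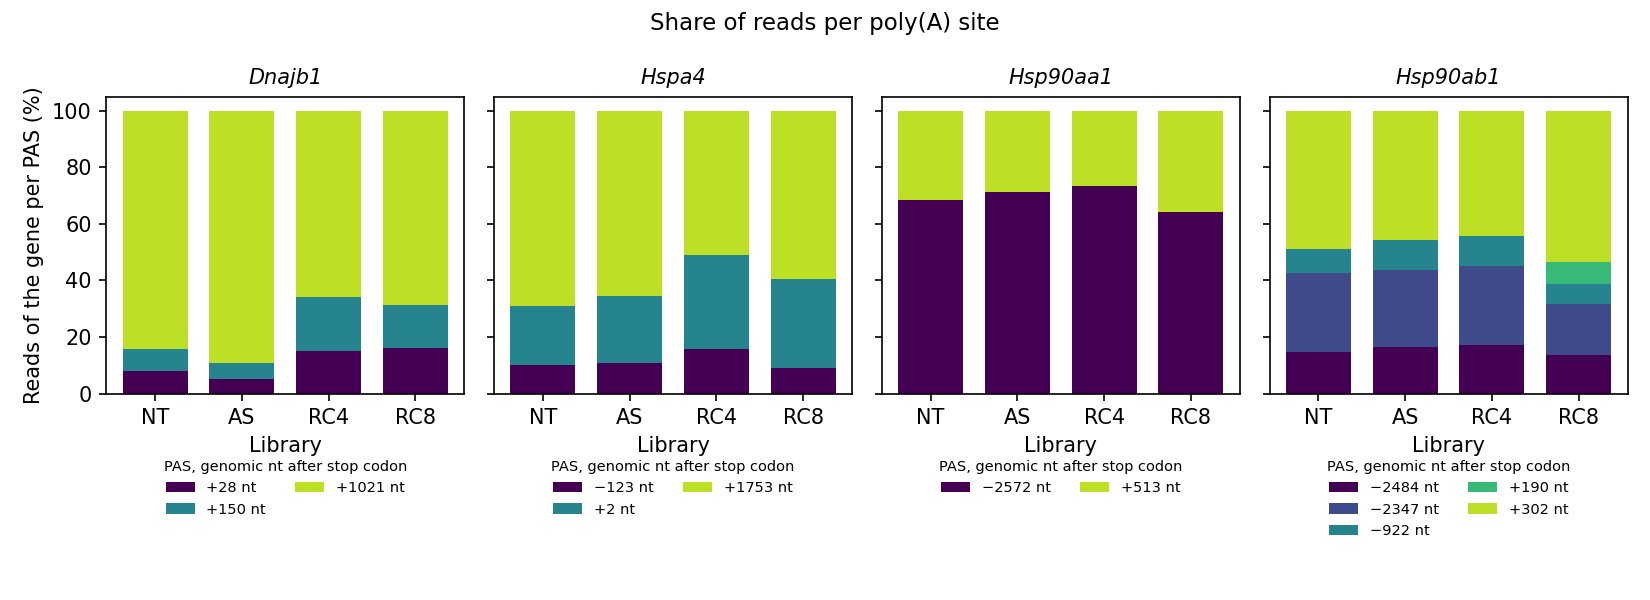
Share of reads (percent) per PAS in each library, for the 4 genes with the PASs described, labelled by genomic distance from the stop codon (negative values lie upstream of it, introns included). NT is taken from the AS table, and the 190-nt PAS of Hsp90ab1 was listed in the RC8 table alone. The distal share of Dnajb1 drops from 84.3% in NT to 65.9% in RC4 and that of Hspa4 from 69% to 51.1%.

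Sequences at the PASs were read because cleavage normally follows an AATAAA or ATTAAA hexamer. Of the 22 PASs, 4 had such a hexamer in the 40 nt before them, beside 51.9% of all 21565 PASs and 11.2% of the 412 in internal exons. Among PASs in last exons the share was 57.5% for genes under 1000 reads and 38.0% for genes with 10000 reads or more. For 1 of the 4, the distal PAS of Hsph1, the hexamer was the last 6 nt and so ended at the PAS itself. Of the 18 without one, 6 had the hexamer starting within 50 nt after the listed position, beside 21.2% of all 10362 PASs without one before them, for example 16 nt after it in Hspa8 and 40 nt after the distal PAS of Dnajb1. An A-rich stretch was counted where a long unbroken run of A lay near the PAS or dense A lay after it. By this count it lay at 2 of the 22 PASs, the distal PAS of Hspa4 and the 190-nt PAS of Hsp90ab1, beside 12.1% of all PASs. The windows of 30 bases ending at a PAS are shown on the gene's strand, with the hexamer in capitals, for 3 of the 4 genes that had one and for the PASs of Dnajb1 and Hspa4 whose shares moved, which had none.
Hspa1b, chr17:35093376-35093405, minus strand: ttaaatattcaaAATAAAaggttacaagta
Bag3, chr7:135690466-135690495, plus strand: gaaAATAAAgtgattatataactctcaaaa
Hspd1, chr1:55134677-55134706, minus strand: tttgtgtAATAAAattttgtttaaagtttc
Dnajb1, distal, chr8:86135710-86135739, plus strand: actcattgtaagttgccactaccaacacaa
Dnajb1, 150 nt, chr8:86134839-86134868, plus strand: cacagaatatattacaatctttcaaagtcg
Hspa4, distal, chr11:53073361-53073390, minus strand: cttacactaagaaaaacagttaacatgaga
Hspa4, 2 nt, chr11:53075112-53075141, minus strand: gaagcttcctgagatggacattgattgatt

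Near-identical copies were sought only in the 300 nt before listed PASs of other genes, and were found there for 4 of the 9 genes. A copy without a listed PAS, such as Hspa1a for Hspa1b, could not be found in this way. The 300 nt before the PAS of the pseudogene Gm12346 were 100% identical to Hsp90aa1, and its reads went from 12396 in NT to 68717 in RC4, a log2 change of 2.45 beside 2.42 for Hsp90aa1. Ssh2 was listed with the same PAS in one of its introns, with 13488 reads in NT, and was not added again below. The pseudogene ENSMUSG00000083840 was 99% identical to Hspa8 and Hspd1-ps3 was 98.7% identical to Hspd1. For Hsp90ab1 a PAS of Ryr3, with 167 reads in NT, matched over 178 nt at 97.8%. With the reads of the 3 pseudogenes added, the log2 changes in AS, RC4 and RC8 were 0.38, 2.43 and 1.27 for Hsp90aa1, 0.35, 1.75 and 0.26 for Hspa8, and −0.47, 1.15 and 0.55 for Hspd1. Per the methods, the alignment kept reads that fit several places, so these sums may count a read at both a gene and its copy. How reads were divided between a gene and its copy was not tested, so the levels of these genes are uncertain.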

How the data were processed

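NIH3T3 RNA of 4 conditions was profiled with QuantSeq FWD, 1 library each. Per the submitters' processing notes, reads were aligned with STAR 2.5.2a to mm9. Per the methods, the authors assigned reads to PASs of PolyA_DB with MAAPER. The deposited count columns hold reads per gene (lowest value 50), not normalized, with 2 columns per library, which were added and treated as 1 sample. In a pair of columns c1 was read as NT and c2 as the treated library, following the methods. The deposited fraction columns hold the share of a gene's reads at each PAS, multiplied here by 100. Columns with the authors' P values and the RED and RLD scores of relative PAS use hold their own comparisons and were not used.

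Counts were divided by the total over the genes of each table (RPM, Python 3.11.15, pandas 2.3.3, scipy 1.17.1). Levels carry exact Poisson intervals, folds log-normal counting intervals and shares Wilson intervals, all at 95%. The fold code was tested on simulated data with median-gene scaling only, not with the scaling to total reads that gave the reported folds. Alternatives were scaling to the median gene, edgeR 4.0.16 TMM factors (normalization only), each count column alone, totals over shared genes, a 1.5-fold threshold, 200 reads in both libraries, and other PAS rules. The named genes are all listed members, and companion chaperones at least 2-fold from NT in any comparison. For Hspa1b, Hsp90aa1 and Hspa8 the 4 genes nearest in log2 change over 7814 genes with 200 reads or more in every library are named too. Members and lists were chosen with earlier results of these data known. PASs were placed on GENCODE vM1 transcripts, and stop-codon distances are genomic. Copies were sought by aligning the 300 nt before PASs to the members (at least 100 nt at 85% identity).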

Additional observations from a re-analysis of the deposited data

Results flagged for a closer look

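Some genes moved in opposite directions from NT in different libraries. These differences of log2 changes rest on 1 library per condition and were not tested. Hspd1 was below NT in AS and above it in RC4 and RC8, differences of 1.61 and 1.04. Hsp90ab1 behaved in the same way, with differences of 1.01 for RC4 and 0.22 for RC8 from AS, although its AS value changed sign with the scaling. Hspa4 was below NT in AS and RC8 and above it in RC4, by 0.23 against AS, and RC8 lay −0.39 from RC4.

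The log2 ratio of distal to other PASs also took opposite signs. For Dnajb1 it was above NT in AS and below it in recovery, by −2.08 in RC4 and −1.89 in RC8 relative to AS. For Hsp90aa1 RC8 stood above NT and the other libraries below, by 0.47 against AS and 0.64 against RC4. For Hsp90ab1 the same differences were 0.62 and 0.71, but they compare ratios over unlike sets of PASs. The RC8 ratio counted the 190-nt PAS, listed there alone, among the others. The NT distal share was 45.8% in that comparison and 48.9% in those of AS and RC4.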

How the results depend on the processing

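No paired analysis was possible because each condition had 1 library and the labels gave no replicate numbers. For single genes, 144 values were recomputed under the alternatives, of which 105 moved by less than their counting interval, 35 moved by more in the same direction and 4 changed sign. The sign changes were in AS, for Hsph1 (0.00823 with median-gene scaling, 0.0131 with TMM) and Hsp90ab1 (0.000553 and 0.00546), both near 0 as reported. The median log2 change of the 9 genes in RC4 was 2.096 with median-gene scaling and 2.08 with TMM, against 1.79 as reported. In AS it was 0.10 from the second count column alone, against 0.16. In RC8 1 gene, Hsp90aa1, had a counting interval wholly past 2-fold, against 2 by the fold itself. Of the 41 companion genes, 8 were at least 2-fold higher and 0 lower in RC4 with median-gene scaling, chosen for them after seeing the data, against 7 and 2. The motif count was 5 with 2-unit elements, against 2. Depth limits gene levels little here, since the fewest reads of a listed gene in a library were 955. Single PASs could have far fewer, such as 5.41 RPM for the PAS of Dnajb1 at 150 nt in NT. Without replicate libraries no difference could be set against the spread between cultures.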

Other observations

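The genes whose log2 changes in AS, RC4 and RC8 lay nearest to those of Hspa1b were Hmox1, Dnajb1, Mt2 and Zfand2a, out of 7814 genes. Hmox1, the heme-degrading oxygenase, had changes of 1.07, 5.01 and 1.87, and Mt2, a metallothionein that binds metals, had 1.25, 3.45 and 1.90. Zfand2a, an arsenite-inducible proteasome-associated protein, had 0.94, 3.13 and 1.49. The nearest of these was 1.71 log2 units away from Hspa1b, so that no gene followed it closely. This closeness is a description over 3 comparisons that share the NT library.

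For Hsp90aa1 the nearest genes were Ssh2, Gm12346, Gm12551 and Nif3l1, the nearest at a distance of 0.094. The PAS listed for Ssh2 was 100% identical to Hsp90aa1 over 300 nt, as was that of Gm12346. For Hspa8 the nearest were Snord14e, Maff, Gprc5a and Irak2, and Snord14e, at a distance of 0.0072, is a small nucleolar RNA gene at the Hspa8 locus with 24276 reads in NT beside 24379 for Hspa8. Ssh2, Gm12346 and Snord14e therefore share sequence or place with the chaperone gene that they resemble.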
